A study of Mus musculus with 3 samples.

Results

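Brown-type adipocyte nuclei made up 496 of the 4509 nuclei kept from a library of mouse sympathetic ganglia (11.0%, 95% interval 10.1 to 11.95%), out of 30300 cells and nuclei kept in the 3 libraries of the series. A nucleus was counted when it held 200 or more genes, had a mitochondrial share of up to 5% among its UMIs (molecular tags that count captured RNA molecules) and met 3 conditions on its RNA. It held UMIs of at least 2 of 6 genes linked to brown fat (Cidea, Ppara, Ppargc1b, Lncbate1, Pank1 and Ucp1), at least 1 UMI of the adipocyte genes Adipoq, Plin1, Cidec or Pparg, and 0 UMIs of Lep, Slc7a10 and Nnat (white-type adipocytes), Ptprc (leukocytes) and Pecam1 (endothelium). The members were thus chosen on measured values of these 15 genes, whose levels are given as a description. The mice had been given RHS and MC903 according to the sample description, while the preparation text names MC903 only; the labels do not expand RHS, and MC903 is the vitamin D analogue calcipotriol, used on mouse skin to raise an inflammation like atopic dermatitis. The ganglia (SCG, STG, T2-T4 and CG in the labels' abbreviations) came from 30 mice pooled into 1 library of gradient-purified nuclei, so no animal can be told from another and no ganglia library of other mice was compared. The skin libraries, of CD45 bead-selected cells from mice given MC903 (control) or RHS and MC903, were used only to apply the same rule to other cells. With 1 library a group there is no test and no p-value, and every interval covers counting error alone.

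Brown adipocytes are fat cells packed with mitochondria that burn fatty acids to make heat. Noradrenaline released by sympathetic nerves acts on their adrenergic receptors and, through cAMP, frees fatty acids from lipid droplets, and uncoupling protein 1 (Ucp1) in the inner mitochondrial membrane lets protons return without making ATP. PGC-1 coactivators (Ppargc1a, Ppargc1b) with the nuclear receptors PPAR and ERR drive the genes of this programme, and in mice brown fat lies along the neck, the large vessels and the spine, close to the sympathetic chain.

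The promoters of 3 genes are shown because PPAR and ERR receptors bind DNA at half-sites of the form AGGTCA: Ucp1, the gene that defines heat production and 1 of the 6 brown genes of the rule, and Slc27a2 and Plin5, a pair that the rule did not use and that differed from white-type nuclei in the results that follow. Each run is the 250 bases before the annotated start, 5′ to 3′ on the gene's strand, from RefSeq (build GRCm38.p6), with matches to the half-site on either strand in capitals.
Ucp1, chr8:83290098-83290347, plus strand: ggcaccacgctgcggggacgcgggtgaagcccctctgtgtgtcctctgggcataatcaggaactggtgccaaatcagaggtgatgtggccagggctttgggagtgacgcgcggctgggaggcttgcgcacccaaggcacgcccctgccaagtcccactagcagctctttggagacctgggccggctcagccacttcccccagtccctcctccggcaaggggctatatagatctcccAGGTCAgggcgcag
Slc27a2, chr2:126552774-126553023, plus strand: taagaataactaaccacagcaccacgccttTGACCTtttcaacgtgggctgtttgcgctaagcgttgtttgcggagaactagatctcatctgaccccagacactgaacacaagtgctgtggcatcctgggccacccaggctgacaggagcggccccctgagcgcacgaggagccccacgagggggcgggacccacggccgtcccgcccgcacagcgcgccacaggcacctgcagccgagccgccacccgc
Plin5, chr17:56117549-56117798, minus strand: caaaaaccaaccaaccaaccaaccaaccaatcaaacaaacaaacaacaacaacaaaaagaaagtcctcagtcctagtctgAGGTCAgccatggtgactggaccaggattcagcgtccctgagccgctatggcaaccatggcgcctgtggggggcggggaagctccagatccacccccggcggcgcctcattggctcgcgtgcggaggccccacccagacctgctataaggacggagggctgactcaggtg

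The match began 14 bases before the start in Ucp1, 220 in Slc27a2 (on the opposite strand) and 170 in Plin5, whose other annotated start had no match. AGGTCA was in 4607 of the 32851 windows of this length that were counted (14.0%), so a match is common. Windows of a single chromosome were left out of all these counts, so genes on it count as having no window. Among the thermogenic genes measured here that the rule did not use, 12 of 14 had a counted window, and 2 of their 16 windows held AGGTCA (Letmd1 and Slc27a2). Among fatty acid oxidation genes 12 of 15 had a window and 3 held the half-site (Acadm, Acadvl and Cpt1a). Lipid droplet genes held it in 4 of 9 genes with a window (Abhd5, Aqp7, Plin2 and Plin5), and of these Abhd5 had the lower level in brown-type nuclei. The ERR element TCAAGGTCA, which contains the half-site, was in 127 of all windows (0.387%), and the cAMP response element TGACGTCA in 508 (1.55%), with none of either in the windows of those 3 lists. These matches describe letters only and are no evidence that a factor bound there.

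The members held a median of 1914 UMIs (509 to 62390) and 1187 genes, 1372911 UMIs in all, and were set beside 3 classes of the same library. White-type adipocyte nuclei (236, median 2098 UMIs) held UMIs of at least 2 of Adipoq, Plin1, Cidec and Pparg, at least 1 of Lep, Slc7a10 and Nnat, at most 1 brown gene and 0 UMIs of Ptprc and Pecam1. Noradrenergic neuron nuclei held UMIs of at least 2 of 4 neuron genes (Th, Dbh and Slc18a2 among them) and 0 of Adipoq, Plin1, Cidec, Ptprc and Pecam1. There were 124 of them, so the labelled cell type, neuron, covered a small share of the library. Of these, 12 were also members and held 18.3% of the members' UMIs, so neuron values are given for the 112 outside the members (median 2416 UMIs). Non-adipocyte nuclei (2859, median 1291 UMIs) were outside the members and white-type nuclei and held at most 1 of the 4 adipocyte genes, and they include these 112. Scrublet called 2 of the 4509 nuclei doublets and 0 of the members, no nucleus was removed as a doublet, and so few calls do not show that doublets were absent. UMIs of 2 or more of the 4 neuron genes were found in 36 members, which held 27.4% of the members' UMIs and included all 13 members above 8000 UMIs. Summed over a list of 10 noradrenergic neuron markers, all detected, members stood at 2240 CPM (UMIs of a gene scaled to all UMIs pooled over the class) with these nuclei and 550 CPM without. The list stood at 619 CPM in all 236 white-type nuclei and 4703 CPM in the 112 neuron nuclei. Ratios, and the CPM and shares printed with them, are therefore given without neuron-marked nuclei in any class, unless all members are named. That left 460 brown-type and 226 white-type nuclei, and neuron-marked nuclei were left out of the non-adipocyte nuclei in the same way.

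Cidea, which encodes a lipid droplet protein typical of brown fat, was found in 193 members (38.9%, 34.6 to 43.4%). In white-type nuclei 3.81% held a Cidea UMI, in neuron nuclei, which should lack it, 1.79%, and in non-adipocyte nuclei 2.87%. Ppara, the fatty acid-sensing receptor, was found in 82.1% of members against 17.8% of white-type and 11.6% of neuron nuclei. Ppargc1b, a coactivator of mitochondrial genes, was found in 85.7% against 27.1% and 13.4%. These 2 genes admitted most members, and 105 members held no other brown gene than this pair. Pank1, a kinase that starts coenzyme A synthesis, was found in 41.3% of members, 2.12% of white-type and 9.82% of neuron nuclei. Lncbate1, a long noncoding RNA of brown fat, was found in 30.9%, 9.32% and 5.36%. All 6 shares were fixed upward by the rule, which also capped them in white-type nuclei. The shares in neuron nuclei were lowered in the same way, since nuclei that passed the rule were taken out of them; with those 12 nuclei included they were 3.23% for Cidea, 16.1% for Ppara, 18.5% for Ppargc1b and 15.3% for Pank1.

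**Figure D1:**
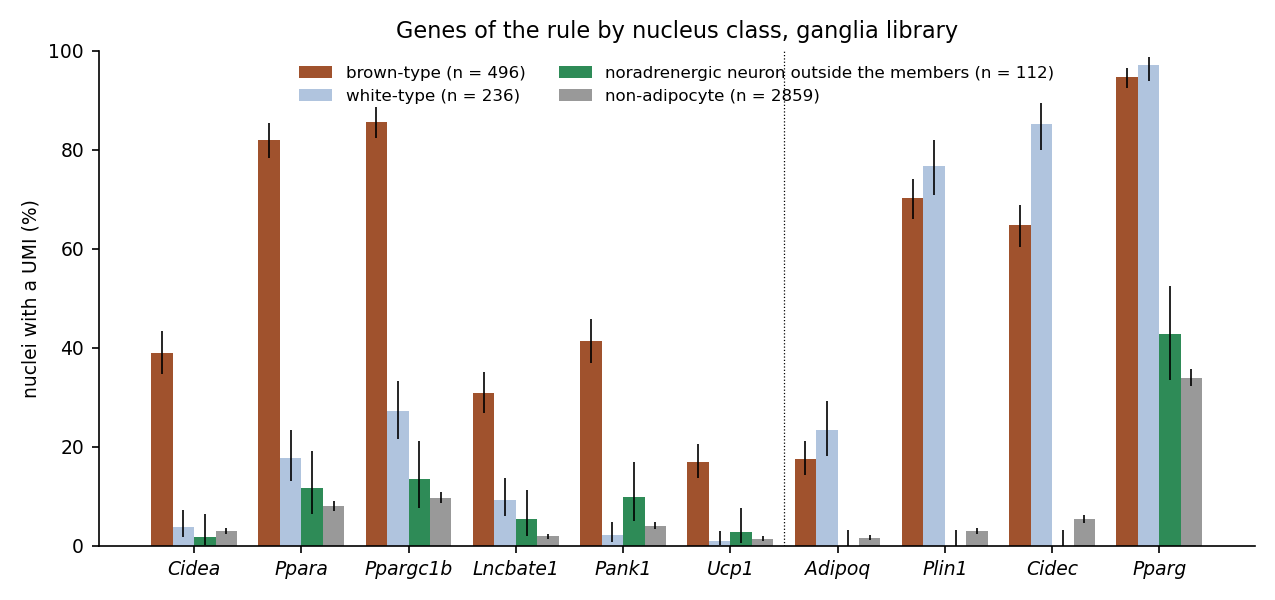
Shares of nuclei with at least 1 UMI (vertical axis, %) of the 6 brown genes (left of the dotted line) and 4 adipocyte genes of the rule (right), in 4 classes of ganglia nuclei (the 112 neuron nuclei are also among the non-adipocyte nuclei); bars are shares and lines exact 95% binomial intervals. Ppara and Ppargc1b were found in 82.1% and 85.7% of members and Ucp1 in 16.9%.

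Ucp1 was sparse. It was found in 84 members (16.9%, 13.7 to 20.5%) with 162 UMIs and at most 13 in a nucleus. Among white-type nuclei 0.848% held a Ucp1 UMI, among neuron nuclei 2.68% and among non-adipocyte nuclei 1.43%. After each nucleus of at least 1000 UMIs was thinned to 1000 in 1 random draw, 47 of 435 members (10.8%, 8.05 to 14.1%) kept a Ucp1 UMI, against 0.943% of 212 white-type nuclei, 2 of 94 neuron nuclei (2.13%, 0.259 to 7.48%) and 0.657% of 1826 non-adipocyte nuclei. Thinning left out 61 members and kept the order of members above the other classes. Thinned shares of Cidea were 23.9% in members, 3.30% in white-type, 1.06% in neuron and 1.59% in non-adipocyte nuclei.

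The adipocyte genes of the rule, of which each member had to hold at least 1, differed in their shares. Pparg, the receptor that drives fat cell formation, was found in 94.8% of members and 97.0% of white-type nuclei, but also in 42.9% of neuron and 33.9% of non-adipocyte nuclei. Plin1, which coats lipid droplets, was found in 70.2% of members and 76.7% of white-type nuclei, and Cidec, a droplet fusion protein, in 64.7% and 85.2%. Adipoq, the hormone adiponectin, was found in only 17.5% of members and 23.3% of white-type nuclei. Of the members 73 were admitted by a single adipocyte gene, which was Pparg in 58, and 52.1% of these 73 lay in an adipocyte cluster. With 2 adipocyte genes this share was 86.0%, and with all 4 it was 93.8%.

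The edges of the rule were gradual. Of the members 218 held 2 brown genes, 140 held 3, 90 held 4, 37 held 5 and 11 held all 6. Just outside, 312 nuclei met every other condition with 1 brown gene, and 24 with no adipocyte gene. Cpt1b, the muscle-type gate of fatty acid entry into mitochondria and no part of the rule, was found in 8.33% of the nuclei with 1 brown gene, 17.0% of those with 2, 25.7% with 3, 41.1% with 4 and 63.6% with 6, while their median depth went from 1438 to 2994 UMIs. Another 485 nuclei failed only through the excluded genes, 155 of them through Nnat alone, 63 through Pecam1, 55 through Lep, 37 through Ptprc and 20 through Slc7a10. Of those excluded by Nnat alone 83.9% lay in an adipocyte cluster, close to the 82.1% of members, and 20.6% held Cpt1b.

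**Figure D2:**
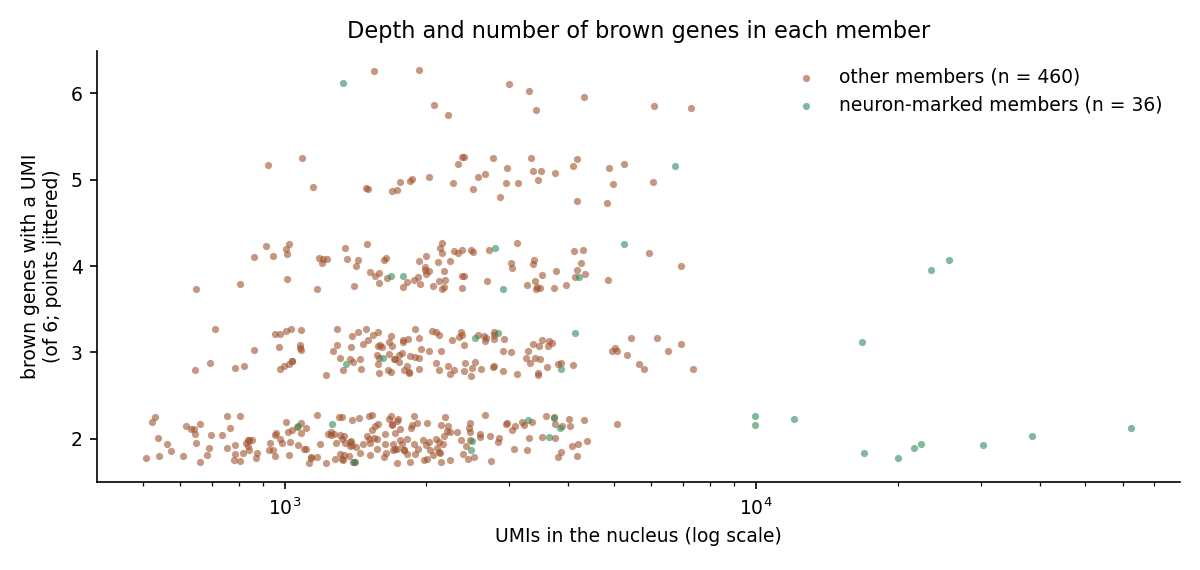
Each point is a member, placed by its UMIs (log scale) and by how many of the 6 brown genes it held (points jittered vertically); colour marks the 36 members with UMIs of 2 or more neuron genes. All 13 members above 8000 UMIs are neuron-marked, and members with 2 to 6 brown genes overlap in depth.

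Depth moved with the rule. Over 4 bins of 124 members by depth, from the shallowest to the deepest, the mean number of brown genes went from 2.54 to 3.31 and the share with Cidea from 33.9% to 45.2%. The share with Ucp1 went from 9.68% in the shallowest bin to 23.4% in the third and 21.0% in the deepest. The deepest bin held 22 of the 36 neuron-marked members, and 62.1% of it lay in adipocyte clusters, against 87.1 to 90.3% of the other 3 bins.

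All kept nuclei were clustered with the 15 genes of the rule left out, giving 25 clusters. Members fell mainly into 3 of these in which over 70% of nuclei held 2 or more of the 4 adipocyte genes: 407 of 496 members (82.1%, 78.4 to 85.3%). The same 3 clusters held 204 of the 236 white-type nuclei, so brown-type and white-type nuclei shared them. Cluster 1, led by Adrb3, Nnat, Car3, Fam13a and Cyp2e1, had 646 nuclei, of which 188 were members and 129 white-type. Cluster 2 had 376 nuclei, 143 of them members and 33 white-type, and its leading genes were Ppara, Ppargc1b, Cpt1b, Coq8a and Acacb, with Cidea and Pank1 also among its first 10. Cluster 7, with Mest, Col12a1, Hilpda and Plin4 among its leading genes, had 261 nuclei, 76 of them members and 42 white-type. Cluster 2 thus had the most members for its size (38.0%, against 29.1% in each of the others), and it was the shallowest of the 3, with a median of 1098 UMIs. At resolution 0.5 a single cluster of 1344 nuclei took in 84.3% of members and 209 of the 236 white-type nuclei. Members did not form a cluster apart from white-type nuclei at either resolution. Outside the adipocyte clusters, 14 members lay in cluster 17, led by the neuronal genes Kcnip4 and Lingo2, and 12 in cluster 9, led by Clps and haemoglobin genes.

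**Figure D3:**
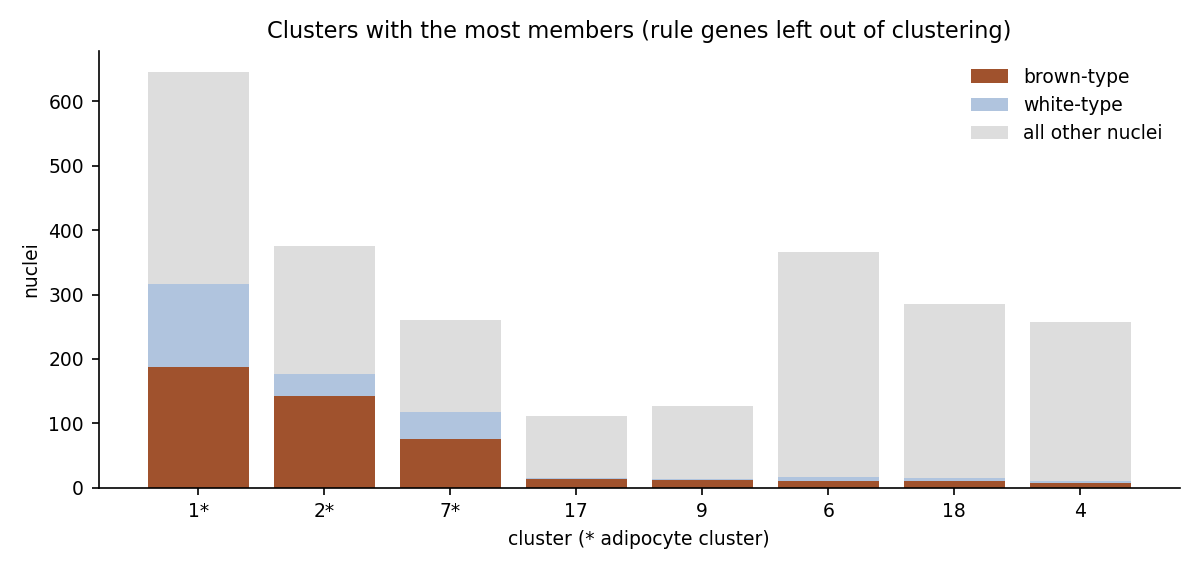
The 8 clusters with the most members (horizontal axis; asterisks mark the 3 adipocyte clusters) by number of nuclei (vertical axis), split into brown-type, white-type and all other nuclei. Clusters 1, 2 and 7 hold 188, 143 and 76 members and also most white-type nuclei.

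The label was checked against markers. The 4 markers that name the class, Cidea, Ppara, Pank1 and Ppargc1b, are in the rule itself and so give no check of it. Of 10 general adipocyte markers, 4 are also in the rule. The other 6 (Lipe, Plin4, Acsl1, Ghr, Pde3b and Fabp4) were all detected and summed to 30639 CPM in members, 37680 CPM in white-type, 3191 CPM in non-adipocyte and 1083 CPM in neuron nuclei. Here and in the list sums that follow, members are the 460 without neuron marks, while white-type and non-adipocyte nuclei keep their neuron-marked ones. The white-type markers that the rule did not exclude were Npr3 and Acvr1c, and both were detected. UMIs of at least 1 of 8 genes of other cell types were found in 232 members (46.8%): Mbp of myelin in 22.4%, Dbh of noradrenergic neurons in 17.9%, Th in 7.26% and Ttn of muscle in 6.85%, against 12.4%, 17.7%, 6.19% and 10.1% of non-adipocyte nuclei. Without Ptprc, which the rule sets to 0, the macrophage list summed to 120 CPM in members, 184 CPM in white-type and 1062 CPM in non-adipocyte nuclei. Without Pecam1, also set to 0, the endothelial list summed to 85.3, 106.5 and 848 CPM, and the fibroblast list to 424, 533 and 2099 CPM. The skeletal muscle list stood at 754 CPM in members, 129 CPM in white-type and 1581 CPM in non-adipocyte nuclei, with all 7 genes detected, so that it was below non-adipocyte nuclei like the other lists but above white-type nuclei. Among all 407 members in adipocyte clusters it was 88.5 CPM. Other lists also stood above white-type nuclei. In members, white-type and non-adipocyte nuclei, the Schwann and satellite glia list summed to 200, 140 and 421 CPM. In the same order the lymphocyte list summed to 28.1, 13.5 and 157 CPM and the mesothelial list to 92.3, 74.4 and 260 CPM. The mural list, at 103, 123 and 254 CPM, was below white-type nuclei.

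Genes were compared over white-type nuclei where both classes together had at least 20 counts. The classes also differed in Xist, an RNA of female cells, found in 34.3% of white-type nuclei and 11.5% of all members. The part of sex in these ratios was not tested. Among all members 13% of genes (1257 of 9691) were at least 2-fold higher and 4.93% at least 2-fold lower. Without neuron-marked nuclei the shares were 7.86% (672 of 8549) and 4.25%, and in the adipocyte clusters 8.10% and 4.87%. Over non-adipocyte nuclei 10.2% of genes were at least 2-fold higher and 28.6% lower. The median log2 ratio over all genes was 0.06 for all members and 0.09 without neuron-marked nuclei, and -0.27 over non-adipocyte nuclei. These are the values against which each list is read, and a list's count covers only the members that reached 20 counts, some of them through brown-type counts alone.

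Thermogenic genes stood above white-type nuclei. Of the 14 measured genes of this list that the rule did not use, 11 were at least 2-fold higher and 0 lower, with a median log2 ratio of 1.82, and all members gave 11 and 1.49. In the adipocyte clusters 10 of 12 were at least 2-fold higher, with a median of 1.75. The list names 25 genes, 6 of them in the rule, and 5 others fell short of 20 counts. Fabp3, Cox8b, Acot11 and Otop1, all among the 11, reached this limit almost wholly through brown-type counts. The limit thus favoured sparse genes that are high in members, and the count of 11 is no support by itself. With at least 100 counts required, the median with all members was 1.43. Esrrg, the receptor ERR gamma, stood at 1374 CPM in members against 187 CPM in white-type and 138 CPM in non-adipocyte nuclei. Its ratio over white-type nuclei was 7.36 (6.02 to 9.08), and it was found in 70.0% of members and 26.5% of white-type nuclei. At 1000 UMIs, all members included, the shares were 55.6% of members, 17.0% of white-type, 17.0% of neuron and 8.05% of non-adipocyte nuclei.

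Slc27a2, a fatty acid transporter and acyl-CoA synthetase whose promoter is printed above, was at 115 CPM against 14.5 CPM (ratio 7.96, 3.91 to 18.9) and found in 17.0% against 1.33% of nuclei. Kcnk3, a potassium channel active in brown fat, was at 154 against 41.7 CPM (3.68, 2.37 to 5.98). Ppargc1a, the cold-induced partner of Ppargc1b, was at 305 against 90.7 CPM (3.37, 2.49 to 4.64). Gk, glycerol kinase, which lets fat cells reuse glycerol, had a ratio of 3.23 (2.49 to 4.23). Prdm16, which sets brown fat identity, differed less (1.95, 1.62 to 2.35), and Ebf2, which opens chromatin at brown fat genes, less still (1.55, 1.41 to 1.70). Of the smaller counts, Fabp3, a fatty acid carrier, had 29 UMIs against 1 (ratio 16.1, 2.66 to 656), Cox8b, a cytochrome oxidase subunit of heart and brown fat, 20 against 1 (11.1, 1.77 to 459), Acot11 24 against 2 and Otop1 19 against 2. Letmd1, a mitochondrial protein, had an interval that spanned 1 (1.71, 0.871 to 3.596). Well known brown fat genes were near or under the limit of detection: Dio2, which activates thyroid hormone, had 16 UMIs in members, Elovl3 had 5, Cox7a1 had 4 and Zic1 had 0. A count of 0 does not show that the RNA was absent.

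**Figure D4:**
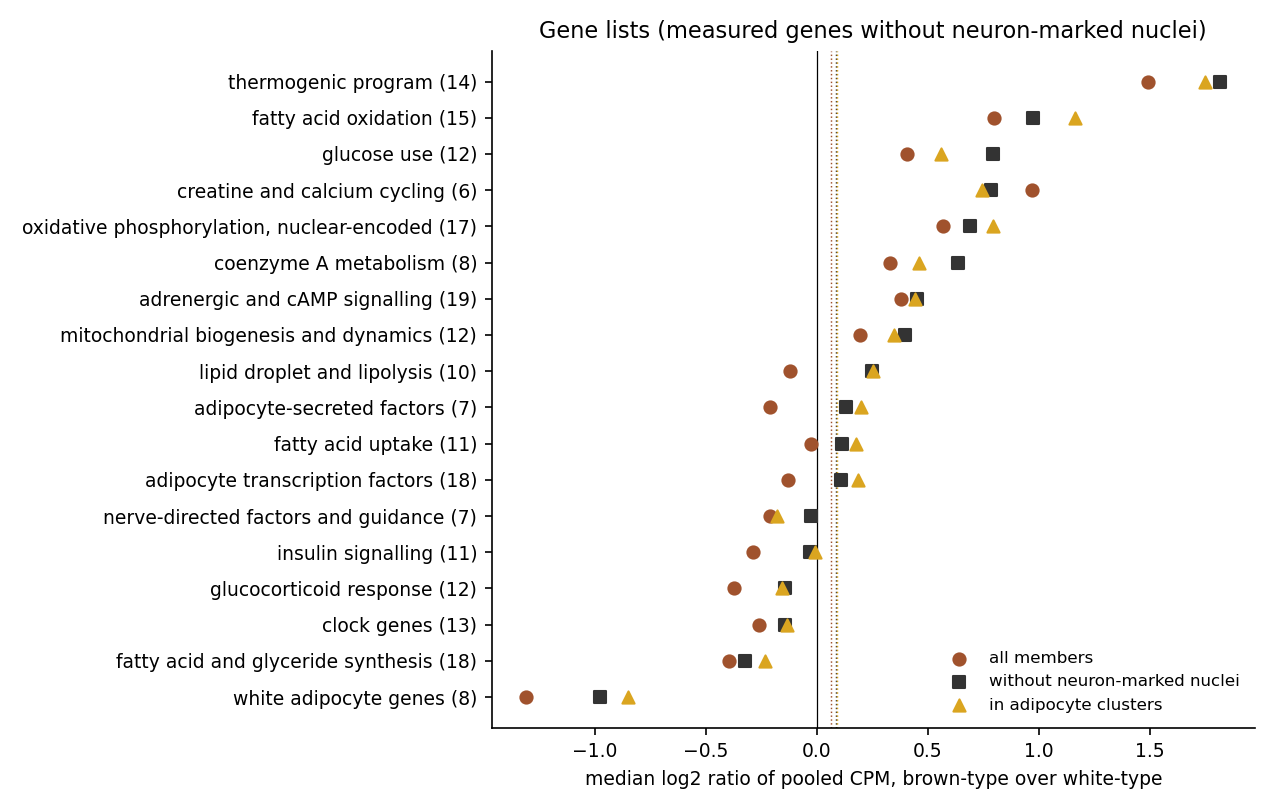
Median log2 ratio of pooled CPM of brown-type over white-type nuclei for 18 gene lists (number of measured genes in brackets); circles are all members, squares leave out neuron-marked nuclei and triangles keep only nuclei in the adipocyte clusters, with dotted lines at the median of all genes. The thermogenic list lies highest at 1.82 and the white adipocyte list lowest at -0.98 without neuron-marked nuclei.

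Fatty acid oxidation genes were shifted the same way with smaller ratios. The median log2 ratio of the 15 genes was 0.97 (0.80 with all members), with 7 at least 2-fold higher (4 with all members) and 0 lower. Cpt1b, which links fatty acids to carnitine for entry into mitochondria, was at 166 CPM against 30.8 CPM (ratio 5.37, 3.26 to 9.45). The liver-type form, Cpt1a, had only 17 UMIs in members and a ratio of 0.627 whose interval spanned 1. Cpt1b was found in 27.0% of members and 6.64% of white-type nuclei. Etfdh, which passes electrons from oxidation to the respiratory chain, had a ratio of 4.28 (2.84 to 6.71), and the thiolase Acaa2 3.92 (2.13 to 7.89). Slc25a20, the carnitine carrier that is also on the thermogenic list, was at 2.62, and the trifunctional protein genes Hadha and Hadhb at 2.17 and 2.13.

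**Figure D5:**
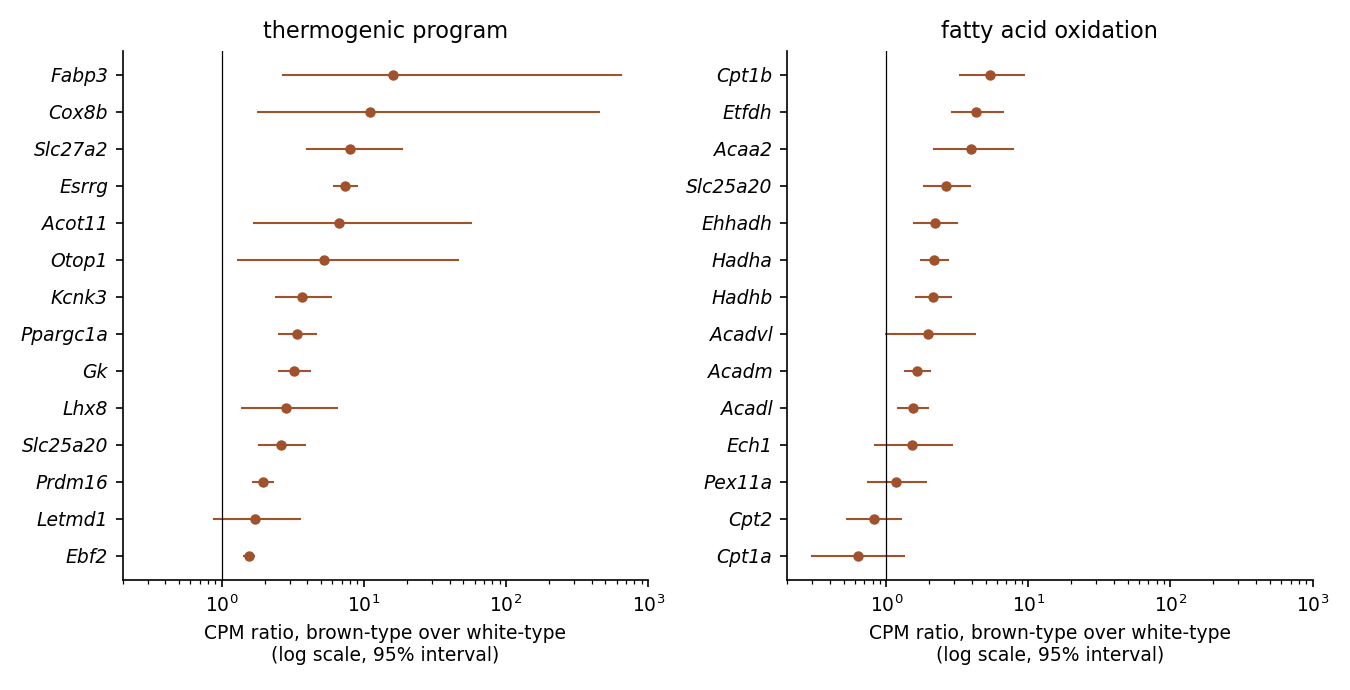
CPM ratio of brown-type over white-type nuclei without neuron-marked nuclei (log scale; lines are exact 95% intervals for counting error) for the measured thermogenic genes (left) and 14 of the 15 measured fatty acid oxidation genes (right). Fabp3 and Cox8b have the widest intervals, from 29 and 20 UMIs, and Esrrg and Ebf2 the narrowest.

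Nuclear-encoded genes of oxidative phosphorylation were higher by less. Of 17 genes 4 were at least 2-fold higher and 0 lower, the median log2 ratio was 0.69 (0.57 with all members), and the interval lay above 1 for 10. Uqcrc1, a core subunit of complex III, had a ratio of 4.36 (2.08 to 10.5) and Cox6a1, a subunit of complex IV, 3.63 (1.79 to 8.33). Cox5b, another subunit of complex IV, had a ratio of 1.15 with an interval that spanned 1. Of the 12 genes of mitochondrial biogenesis and dynamics 0 were at least 2-fold different either way, with a median of 0.40. The coenzyme A list, chosen because Pank1 marks the class, had 3 of 8 genes at least 2-fold higher: Acot11, Ppcs (3.14, 0.907 to 16.7) and Coasy (2.77, 1.04 to 9.26). Pank3, which catalyses the same step as Pank1, was lower (0.624, 0.491 to 0.793). Slc25a42, the mitochondrial carrier of coenzyme A, was at 365 against 196 CPM (1.87, 1.501 to 2.34).

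Receptors for noradrenaline differed by type. Adra1a, the alpha-1A adrenergic receptor, was at 1150 CPM in members, 506 CPM in white-type and 60.2 CPM in non-adipocyte nuclei. Its ratios were 2.27 (1.99 to 2.60) over white-type and 19.1 (16.7 to 21.9) over non-adipocyte nuclei, and it was found in 72.2% of members. Adrb3, the beta-3 receptor through which noradrenaline drives lipolysis in mouse fat, was lower, at 122.5 CPM against 232 CPM (0.528, 0.408 to 0.682). It was found in 14.3% of members and 27.9% of white-type nuclei, and 8.38-fold above non-adipocyte nuclei. Adrb1, the beta-1 receptor of brown fat precursors and heart, had 24 UMIs against 3 (4.43, 1.35 to 23.0). Downstream, the adenylyl cyclase Adcy3 was higher (4.11, 2.34 to 7.78) and Adcy5 lower (0.619, 0.528 to 0.726). Prkaca, the catalytic subunit of protein kinase A, was at 2.31 (1.35 to 4.19), and Gnas, which carries the signal from receptor to cyclase, at 1.80 (1.53 to 2.11). Prkar2b, the regulatory subunit of fat, was found in 88.3% of members and was 15.7-fold above non-adipocyte nuclei, but 1.37-fold above white-type. Over the 19 measured genes the median log2 ratio was 0.45 (0.38 with all members), with 5 at least 2-fold higher and 0 lower, against 2 lower with all members.

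Lipid droplet genes were far above non-adipocyte nuclei and near white-type levels. All 10 measured genes were at least 2-fold above non-adipocyte nuclei (median log2 2.60), while their median over white-type nuclei was 0.25 and, with all members, -0.12. Plin5, which ties droplets to mitochondria and whose promoter is printed above, was at 124.5 CPM against 30.8 CPM (4.04, 2.42 to 7.15). Plin4, a droplet coat of white fat, was the opposite, at 1242 against 2921 CPM (0.425, 0.394 to 0.458), and Abhd5, the coactivator of triglyceride lipase, was at 0.431 (0.354 to 0.523). The lipases Pnpla2 and Lipe, with ratios of 1.14 and 0.972, had intervals that spanned 1. Among fatty acid uptake genes, 1 of 11 was at least 2-fold higher (Vldlr, 2.09), and Cd36, the main fatty acid transporter, was level (1.02, 0.956 to 1.10).

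Fatty acid synthesis divided by isoform. Acacb, the carboxylase at the mitochondrial surface whose product restrains Cpt1, was at 1581 CPM in members and 738 CPM in white-type nuclei (2.14, 1.92 to 2.39). Acaca, the cytosolic carboxylase that feeds fatty acid synthase, was at 852 and 2090 CPM (0.408, 0.373 to 0.446). Scd1, which desaturates new fatty acids, was also lower (0.394, 0.320 to 0.485), and Elovl6, which lengthens them, was higher (2.93, 1.94 to 4.55). The 18 genes had a median log2 ratio of -0.33, with 2 at least 2-fold higher and 2 lower (1, 3 and a median of -0.40 with all members). In glucose use 5 of 12 were at least 2-fold higher and 0 lower (median 0.79; 1 gene and 0.41 with all members). Pdk4, which turns pyruvate away from oxidation, was at 1208 against 515 CPM (2.35, 2.06 to 2.68), Ldhb at 3.01 (1.47 to 6.98) and the insulin-responsive transporter Slc2a4 at 2.27 (1.15 to 4.86). Of 11 insulin signalling genes Irs1 (0.486, 0.408 to 0.579) and Grb10 (0.300, 0.225 to 0.398), an adaptor that dampens the receptor, were at least 2-fold lower, and Insr itself was level (0.979).

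White adipocyte genes that the rule did not use were lower. Of 8 measured genes 4 were at least 2-fold lower and 0 higher (median log2 -0.98), and with all members 5 of 9 (-1.31). Retn, the hormone resistin, was at 40.1 against 147 CPM (0.273, 0.182 to 0.404), Cyp2e1 at 0.328 (0.252 to 0.425) and Npr3, which clears natriuretic peptides, at 0.496 (0.388 to 0.633). Acvr1c, a receptor of white fat, differed little (0.820, 0.730 to 0.922). Among secreted factors Igf1 was lower (0.431, 0.371 to 0.501), Vegfa, which draws vessels, was at 1.33 (1.15 to 1.54), and Fgf21 had 0 UMIs in members and white-type nuclei. Nrg4, a factor released by brown fat that promotes nerve outgrowth, was found in 72.8% of members and was 12.7-fold above non-adipocyte nuclei (11.4 to 14.1), but level with white-type nuclei (1.09, 0.997 to 1.20). Most genes of the nerve-directed list were low beside non-adipocyte nuclei. Of 11 genes 8 were at least 2-fold lower and 2 at least 2-fold higher (median log2 -2.07), where 28.6% of all genes were lower. Over white-type nuclei the median of this list was -0.03, beside 0.09 for all genes, so the low level was shared with white-type nuclei. Clstn3, a locus that encodes a fat protein promoting sympathetic innervation, was at 53.2 against 19.9 CPM (2.67, 1.38 to 5.66), and the guidance gene Slit3 at 0.496 (0.442 to 0.557).

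Adipocyte transcription factors had a median near that of all genes. Of 18 measured 3 were at least 2-fold higher (Esrrg, Esrra and Tbx15) and 0 lower, with a median log2 ratio of 0.11 (2 higher, 1 lower and -0.13 with all members). Esrra, the receptor ERR alpha, was at 137.5 CPM against 65.3 CPM (2.11, 1.45 to 3.13), while Tbx15 had 18 UMIs against 3 and an interval that spanned 1. Zfp423, a repressor of the brown programme in white fat cells, was lower (0.622, 0.524 to 0.738), and Ebf1 was found in 98.3% of members. Glucocorticoid response genes had a median log2 ratio of -0.14, with 0 of 12 at least 2-fold different (2 lower and -0.37 with all members). Hsd11b1, which makes active glucocorticoid in fat, was at 1.71 (1.14 to 2.64), and Tsc22d3 and Mt1, both induced by glucocorticoid, at 0.582 (0.449 to 0.755) and 0.557 (0.453 to 0.684). No ganglia library of mice without RHS was compared, so these values describe cell classes and not an effect of RHS. Of 13 clock genes Nr1d1, a repressor of the clock with 30 UMIs against 4, was the only one at least 2-fold different without neuron-marked nuclei (4.15, 1.46 to 16.2). Creatine and calcium cycling genes, a proposed heat source apart from Ucp1, were largely unmeasured (6 of 12 reached 20 counts). Ryr2 was at 2.15 (1.64 to 2.85), and Atp2a1, a calcium pump of fast muscle at 5.72 (1.79 to 29.2), was at 0.866 in the adipocyte clusters, where the muscle list was low.

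The genes that differed most from white-type nuclei by the lower bound of their ratio depended on the neuron-marked nuclei. With all members the first 12 were neuronal, among them Asic2, an ion channel (26.2, 16.0 to 45.9), Csmd3 (59.0, 10.4 to 2348, with 95.6% of its counts in 1 nucleus) and Kcnip4, a potassium channel partner (9.95, 8.85 to 11.2). Between 88.4% and 99.3% of the members' counts of these 12 lay in neuron-marked nuclei, and without those Asic2 was at 1.15, Csmd3 at 0.554 and Kcnip4 at 1.49. Without neuron-marked nuclei Esrrg, Dhrs9 (16.3, 4.32 to 138), Slc27a2, Cpt1b, Lgr6 (9.60, 3.11 to 48.0), Adtrp (4.28, 2.97 to 6.35) and Slc7a8 (9.04, 2.92 to 45.4) were among the first 12. Dhrs9 is a retinol dehydrogenase, Adtrp a lipid hydrolase and Slc7a8 an amino acid transporter. Adtrp was found in 30.7% against 9.73% of nuclei, and the ratios of these 7 genes in the adipocyte clusters ran from 5.62 to 15.9. The muscle genes Myh1, Ttn, Mybpc1 and Trdn were also among the 12, in 1.96 to 5.87% of members, with Ttn at 6.95 and at 1.73 in the adipocyte clusters. The remaining gene, the alarmin Il33, had 75.7% of its 70 counts in 1 nucleus. The part of muscle RNA in these values was not tested.

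Another set of genes was lower in members than in white-type nuclei. Prr16, a regulator of translation, had a ratio of 0.0698 (0.0461 to 0.102) and was found in 3.70% against 37.2% of nuclei. Eepd1 was at 0.142 (0.117 to 0.171) in 19.6% against 55.3% of nuclei, and Chst1, a sulfotransferase, at 0.0434 (0.0114 to 0.118). Ctsc, Chrdl1, Fam129b, Hip1, Spon1, Fmr1 and Cmklr1, the chemerin receptor, ran from 0.148 to 0.193. Trpm3, at 0.119, went the other way in the adipocyte clusters (2.18, 1.02 to 5.17). Ptgds, at 0.0834, was at 1.92 there with an interval that spanned 1 (0.495 to 10.9). They were found in 7.17% and 2.39% of members. Above non-adipocyte nuclei the genes with the highest bounds were Acaa1b (84.8, 21.9 to 726), Slco1a1, Ctcflos, Adra1a, Prkar2b, Tmem45b, Acsl1, Klb, Slc27a2, Slc36a2, Gpd1 and Nrg4. Acsl1, which activates fatty acids, stood at 5011 CPM in members and 343 CPM in non-adipocyte nuclei (14.6, 13.8 to 15.5) and was found in 94.8% of members. Klb, the co-receptor of FGF21, was at 17.0 (12.6 to 23.2). Of these 12 genes Adra1a, Slc27a2, Acaa1b and Gpd1, glycerol-3-phosphate dehydrogenase, were also at least 2-fold above white-type nuclei, and the other 8 were within 2-fold of them.

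Members with and without a Ucp1 UMI differed in more than Ucp1. The 78 with Ucp1 were deeper (median 2252 against 1780 UMIs in the other 382). They held a mean of 3.95 against 2.77 brown genes, Ucp1 included, so most of this gap was set by the split on Ucp1 itself. Fatty acid oxidation genes were higher in 12 of 14 (median log2 0.64) and oxidative phosphorylation genes in 15 of 17 (0.31). The median over all 7107 genes was -0.06, so more genes were lower than higher. The share of all genes that were higher is not given, so these counts are only a description. Thermogenic genes were higher in 8 of 13 (0.33). Cpt1b was at 241 CPM (179 to 319) with Ucp1 and 146 CPM (121 to 175) without, and Gk at 694 (584 to 819) and 329 CPM (290 to 371). Fabp3 was at 68.9 (37.7 to 116) and 18.9 CPM (10.6 to 31.2). White adipocyte genes were lower in 5 of 6 (median -0.68); Cyp2e1 had 1 UMI with Ucp1 and 95 without. Glucocorticoid response genes were lower in 11 of 12 (median -0.36), with Fkbp5, a chaperone induced by glucocorticoid, at 975 (844 to 1121) and 1339 CPM (1260 to 1422). Prdm16 and Ebf2 had overlapping intervals in the 2 subsets, at 502 and 550 CPM for Prdm16.

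Pooled levels in members differed between the 3 adipocyte clusters. These values only describe 1 library, since the clusters were built from the same nuclei and all genes outside the rule could enter (Adrb3 leads cluster 1 and Plin4 is among the leading genes of cluster 7), and Ucp1, Pank1, Lncbate1 and Ppara chose the members. Ucp1 was found in 12.6% of the 183 members in cluster 1, 16.3% of the 141 in cluster 2 and 22.2% of the 72 in cluster 7, with pooled levels of 86.0 CPM (61.2 to 118), 182 CPM (128 to 253) and 264 CPM (193 to 352). Pank1 ran the other way between clusters 1 and 7, at 465 CPM (405 to 533) and 166 CPM (111 to 239), as did Lncbate1 at 289 and 115 CPM. Cluster 1 members had the most Adrb3, at 192 CPM (154 to 237) against 30.4 CPM (11.2 to 66.2) in cluster 2 and 103 CPM (61.1 to 163) in cluster 7. They also had more of the 4 measured white adipocyte genes than cluster 2 (4 of 4 higher, median log2 1.28), while thermogenic genes stood 0.77 above cluster 7 (8 of 11 higher). Over all measured genes the median log2 ratio of cluster 1 members was -0.016 over cluster 2 and 0.063 over cluster 7. More genes were thus lower than higher beside cluster 2 and more were higher than lower beside cluster 7. Counts of list genes are to be read with this. Cluster 7 members had the most Plin4, at 2269 CPM (2051 to 2504) against 1127 and 1105 CPM, and Plin5, at 201 CPM (140 to 279) against 101 and 152 CPM, and lipid droplet genes were higher there than in cluster 1 for 9 of 10. Their Esrrg was lower, at 831 CPM (701 to 978) against 1727 and 1561 CPM. The 64 members outside the adipocyte clusters held Ucp1 in 25.0% but had less Ppara, at 649 CPM (534 to 782) against 1329 CPM or more in the 3 clusters.

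The rule was also applied to the skin libraries, where CD45 selection should leave few fat cells. The rule itself asks for 0 UMIs of Ptprc, the gene of CD45, so it barred every cell with a Ptprc UMI. The low shares that follow were thus in part set in advance. They give no rate of false members among ganglia nuclei. With up to 20% mitochondrial UMIs allowed, 70 of 12723 cells passed in the control library (0.550%, 0.429 to 0.695%). In the RHS library 58 of 13068 passed (0.444%, 0.337 to 0.573%). With the limit of 5% used for nuclei it passed 1 control cell (0.0145% of the control cells kept under that limit) and 0 RHS cells. Ucp1 was at 1.31 CPM in the control and 2.64 CPM in the RHS skin library, Ppara at 0.533 and 0.460 CPM, and Cidea at 6.01 and 6.07 CPM, against 118, 992 and 226.5 CPM in all members. Members were chosen for UMIs of the brown genes, so these gaps were in part set by the rule. In non-adipocyte ganglia nuclei Ucp1, Ppara and Cidea were at 8.13, 56.9 and 16.1 CPM. Ppargc1b was at 3.93 and 4.18 CPM and Lncbate1 at 0.331 and 0.172 CPM, against 1120 and 173 CPM. Pank1 was the highest of the 6 in skin, at 31.2 and 27.8 CPM against 283 CPM in members, which is near its 26.0 CPM in non-adipocyte ganglia nuclei. The skin cells were whole cells captured on another platform, so these values are only a description and not a comparison of tissues. No barcode was shared between the ganglia and skin libraries, and 5 were shared between the skin libraries.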

How the data were processed

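The matrices are deposited UMI counts per gene and barcode, whole numbers with no normalization; Cell Ranger 7.1.0 produced those of the ganglia, per the file headers. The submitters' processing notes name the build GRCm39 and the tools Cell Ranger, Seurat 5.1.0 and R 3.6.0. Nothing else about the authors' processing was used. The ganglia library held 4706 barcodes, 32285 genes and 11101393 UMIs, with at least 500 UMIs a barcode. Intronic and exonic reads are not separated, and depth limits genes with few counts.

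Counts were summed over the nuclei of a class, scaled to CPM with exact Poisson intervals, and compared as ratios with exact conditional binomial 95% intervals; shares have Clopper-Pearson intervals. Genes needed 20 counts in both classes together and genes named for their ratio 30 in the higher class; a count of 0 was set at a floor of 3. The named genes were the rule's genes, the 12 with the highest and lowest interval bounds, and 2 from each end of the 18 lists, with further list genes described after their values were seen; some genes are counted in their lists but not reported here by name. Clustering used scanpy 1.11.5 with 10000 UMIs per nucleus, 2000 variable genes, 30 components, 15 neighbours and Leiden resolution 1.0. Other tools were anndata 0.12.19, numpy 2.4.6, scipy 1.17.1, pandas 2.3.3, igraph 0.11.9, matplotlib 3.10.9 and Python 3.11.15. The ratio and interval code was tested on simulated data. The members and lists were chosen with earlier results of these data known.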

Additional observations from a re-analysis of the deposited data

How the results depend on the processing

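The share of members among ganglia nuclei was 6.17% with 3 of the 6 brown genes, 9.38% with 2 of the 4 adipocyte genes, 5.86% without nuclei holding a UMI of another cell type and 9.03% in the adipocyte clusters only. In control skin it was 0.0145% with at most 5% mitochondrial UMIs, 0.0550% with 3 brown genes and 0.0865% with 2 adipocyte genes, and in RHS skin 0%, 0.0459% and 0.0765%. The share with Ucp1 was 25.5% with 3 brown genes and 10.8% after thinning. The largest cluster's share of members was 53.4% with at least 500 genes, 55.4% with at most 1% mitochondrial UMIs, 45.3% with 3 brown genes, 43.6% without UMIs of another cell type, 46.2% in the adipocyte clusters, 84.3% at resolution 0.5, 31.5% at 2.0 and 43.55% with adipocyte markers also left out.

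Genes at least 2-fold higher numbered 714 with 3 brown genes, 683 with 2 adipocyte genes, 569 without UMIs of another cell type, 672 without neuron-marked nuclei, 629 in the adipocyte clusters, 501 after thinning, 390 with 100 or more counts and 2086 with 1 or more; those lower numbered 318 without UMIs of another cell type, 263 after thinning, 166 with 100 or more counts and 1817 with 1 or more. The cause of these shifts was not tested, except that thinning and count limits change how many genes are measured. Of 252 list medians under the alternatives 251 stayed within 1.5-fold of the main value, and the creatine and calcium list fell to 0.19 with 2 adipocyte genes. The lipid droplet, uptake, secreted and transcription factor medians were below 0 with all members and above 0 without neuron-marked nuclei.

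Of 104 genes followed, these ratios with an interval that excluded 1 crossed 1 where at least 20 counts remained. Csmd3 without neuron-marked nuclei (0.554) and, in the adipocyte clusters, Atp2a1 (0.866) and Ptgds (1.92) crossed 1 with fewer counts. Trpm3 was at 6.37 with at most 1% mitochondrial UMIs, 2.22 without UMIs of another cell type, 2.18 in the adipocyte clusters and 11.3 when white-type nuclei held no brown gene. Ttn was at 0.313 with 3 brown genes. Hk2 was at 1.002 with 3 brown genes, 1.06 with 2 adipocyte genes, 1.08 without neuron-marked nuclei, 1.06 in the adipocyte clusters, 1.28 after thinning and 1.035 with equal weight per nucleus. Pde10a was at 0.832 with 2 adipocyte genes and 0.509 without UMIs of another cell type. Sgk1 was at 0.826 with 2 adipocyte genes, 0.972 without UMIs of another cell type, 0.923 without neuron-marked nuclei and 0.673 in the adipocyte clusters. Lsamp was at 0.852 without UMIs of another cell type and 0.925 in the adipocyte clusters, Efna5 at 0.981 without neuron-marked nuclei and Atp2a2 at 0.908 after thinning. The settings without neuron-marked nuclei, in the adipocyte clusters and with equal weight were chosen after seeing the data. No paired analysis was possible because each group holds 1 library.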

Other observations

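White-type nuclei stood apart from the members and from the other classes in Xist, the RNA of the inactive X chromosome in female cells. It was found in 34.3% of white-type nuclei (28.3 to 40.8%), 11.5% of members (8.82 to 14.6%), 16.5% of non-adipocyte nuclei, 11.6% of neuron nuclei outside the members and 17.7% of all kept nuclei. After thinning to 1000 UMIs it was found in 34.9% of white-type nuclei, 9.20% of members and 14.2% of non-adipocyte nuclei. UMIs of any of 4 Y-linked genes were found in 69.6% of members, 55.5% of white-type and 49.0% of non-adipocyte nuclei, and after thinning in 51.5% of members and 44.3% of white-type nuclei. Members of cluster 1 held Xist in 16.9%, those of cluster 2 in 6.38% and those of cluster 7 in 4.17%. The labels do not state the sex of the pooled mice.

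Within the 460 members without neuron marks, genes were correlated with the summed count of the brown genes of the rule. Counts were scaled to 10000 UMIs per nucleus and put on a log scale. The highest Pearson correlations were with Slc4a4 (0.32), Esrrg (0.30) and Prkar2b (0.27). The nuclei came from a single library and both measures were scaled by the same depth, so these values only describe sparse counts.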
